A study of Drosophila melanogaster with 24 samples.

Results

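Stwl, the product of the Drosophila gene stonewall (stwl), is a chromatin protein without which the ovary loses its germline stem cells. Its occupied intervals were compared between ovaries labelled bam GKD and ovaries labelled WT. All intervals of both Stwl lists on X, 4 and the arms 2L, 2R, 3L and 3R were taken, 12857 in bam GKD and 8576 in WT, which makes 21433 of the 26565 intervals in the 3 interval lists used from the series. A further 31 bam GKD and 9 WT intervals on the Y chromosome were only counted.

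Intervals came from CUT&RUN, in which an antibody directs a tethered micrococcal nuclease to cut the DNA around its target in permeabilised tissue. The labels assign the bam GKD ovaries to undifferentiated stages and the WT ovaries to differentiated stages, and both used the same Stwl antibody, made by the Jagannathan Lab. The labels give no driver, strain or age for either genotype, and they do not spell out GKD. Each genotype had 1 list, so there was no replicate, no test was made between genotypes, and the intervals given for shares cover counting error only. In whole ovaries, a different mix of cells and a different occupancy per cell cannot be told apart. The lists hold positions alone, so the knockdown of bam and the cell types in the ovaries could not be checked.

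In the fly ovary, germline stem cells at the tip of the germarium divide to give a stem cell and a daughter. The daughter switches on bam (bag of marbles), whose product lets it leave the stem cell programme. Without bam function, undifferentiated germ cells accumulate and the later egg chambers, with polyploid nurse cells and follicle cells, are not made. Stonewall carries MADF and BESS domains, which are found in chromatin-bound proteins.

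The bam GKD list covered 21.5 Mb (16.1% of the arms, measured to the last position in the gene table or the lists), and the WT list covered 11.7 Mb (8.74%). The median interval was 807 bp wide in bam GKD and 721.5 bp in WT. Wide intervals made up more of the bam GKD list, where 842 intervals (6.55%) reached 5000 bp, against 345 (4.02%) in WT. Of 40 bam GKD and 11 WT intervals of at least 20 kb, the widest were 81541 bp and 72696 bp. No interval was narrower than 171 bp in bam GKD or 176 bp in WT, and neighbours in 1 list were never closer than 1001 bp.

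Overlapping intervals of both lists were joined into groups, and each group was put in 1 of 8 classes. Of the bam GKD intervals, 6154 (47.9%, 95% exact interval 47.0 to 48.7) overlapped no WT interval, and of the WT intervals 1274 (14.9%, 14.1 to 15.6) overlapped none of bam GKD. Cutting the bam GKD list to its 8576 widest intervals, with the WT list left whole, brought these counts to 3335 and 2606. Such a cut can only lower the count in bam GKD and raise that in WT. The other intervals formed 5605 pairs of 1 interval from each list, and groups of more than 2 intervals. Base by base, 42.5% of the bases under bam GKD intervals also lay under WT intervals, and 78.4% of the bases under WT intervals lay under bam GKD intervals. The intervals found in bam GKD only were numerous and narrow (median 512 bp), and held 26.6% of that list's bases. Those found in WT only were narrower (median 282.5 bp) and held 5.26% of the WT bases.

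**Figure D1:**
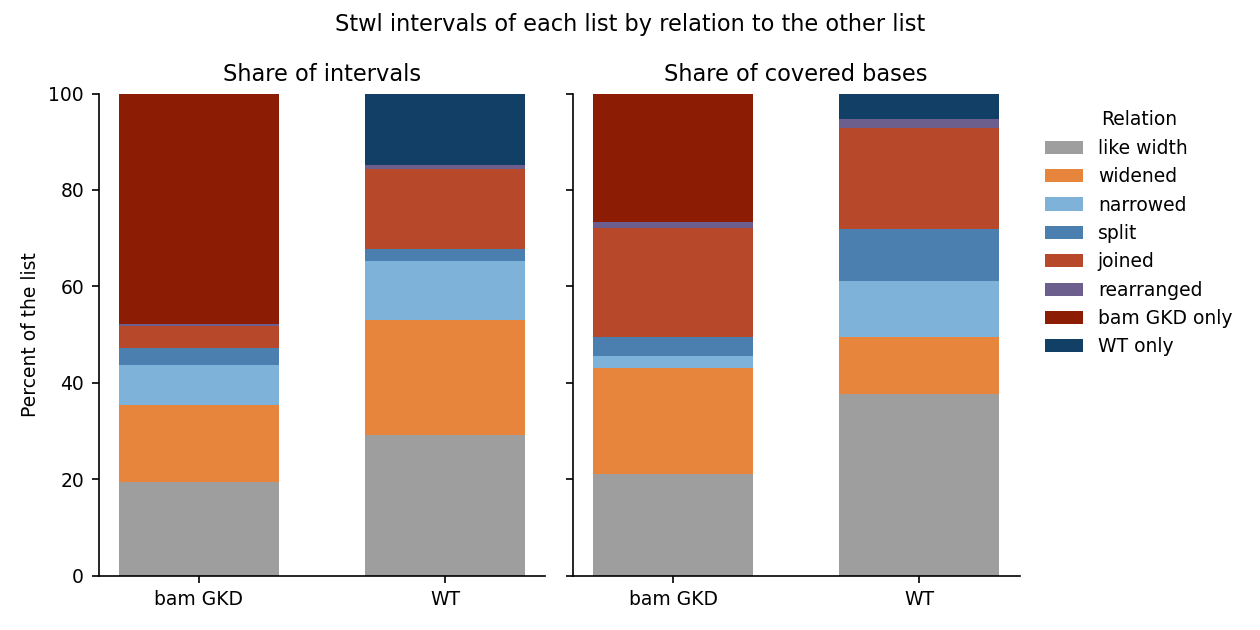
Share of intervals (left) and of covered bases (right) of the bam GKD and WT lists by relation to the other list, in percent. Intervals in bam GKD only take 47.9% of the bam GKD intervals and 26.6% of its bases, and intervals in WT only take 14.9% and 5.26% of the WT list. With the bam GKD list cut to its 8576 widest intervals and the WT list left whole, 3335 in bam GKD and 2606 in WT were unpartnered.

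Among the 5605 pairs, 2033 (36.3%) were widened, meaning at least 1.5 times wider in bam GKD, 1066 (19.0%) were narrowed by the same factor, and 2506 were of like width. Over all pairs the bam GKD interval was 1.11 times as wide as the WT interval at the median (quartiles 0.795 and 2.24). The widened pairs had medians of 1782 bp in bam GKD and 363 bp in WT, and in 80.6% of them the WT interval lay wholly inside the bam GKD interval. Narrowed pairs had medians of 338 bp in bam GKD and 955.5 bp in WT, and in 79.5% the bam GKD interval lay wholly inside the WT one. Pairs of like width shared 0.817 of their joint span at the median, and no pair had identical borders. The 3 pairs just inside the widened class had a ratio of 1.5 and the 3 just outside it between 1.4985 and 1.49951. At the border of the narrowed class they lay between 0.665 and 0.666 inside and at 0.667 outside.

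Widening was most frequent where the WT interval was narrow. Of the 1126 pairs with the narrowest WT intervals (176 to 298 bp), 74.7% were widened and the median bam GKD width was 739.5 bp, against 213.5 bp in WT. Of the 1121 pairs with the widest WT intervals (1929 to 24245 bp), 12.0% were widened, 18.7% were narrowed and the median ratio was 0.994. Pairs were sorted here by 1 of the 2 widths in the ratio, and a WT interval near the lower limit of the list can hardly be narrowed.

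**Figure D2:**
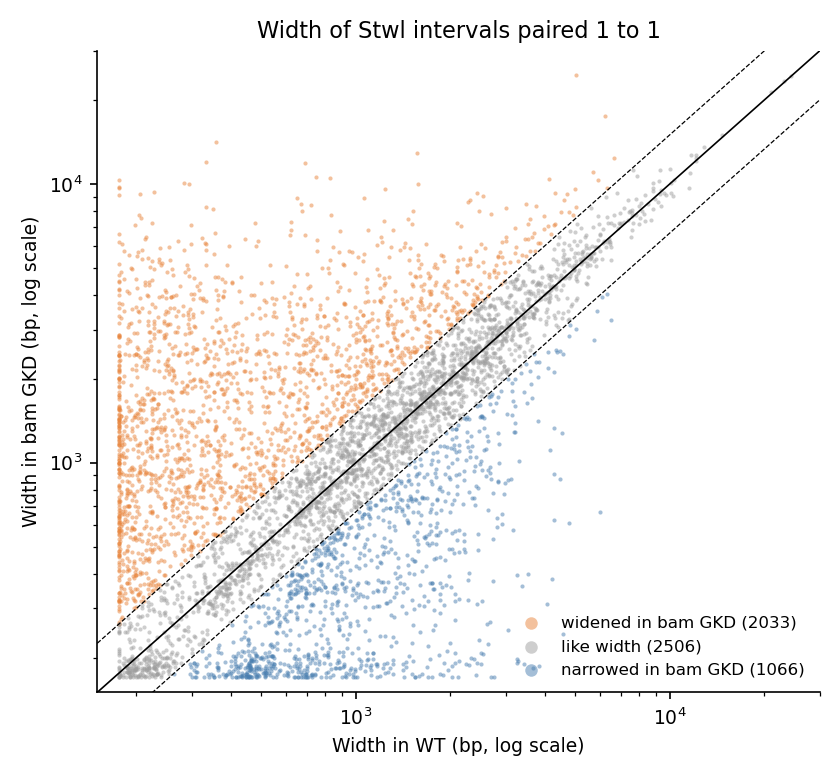
Width in bam GKD (vertical) against width in WT (horizontal) of the 5605 Stwl intervals paired 1 to 1, in bp on log axes, with the line of equal width and dashed lines at a ratio of 1.5. Widened pairs (2033) lie mostly above narrow WT intervals, narrowed pairs (1066) lie below, and the flat lower edges are the smallest widths in each list.

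Among the 1 to 1 pairs, the 5 with the largest gain in width in bam GKD were these. At pHCl-1, which encodes a chloride channel, the interval measured 24510 bp in bam GKD (3L, 15844643 to 15869152) and 5036 bp in WT. An interval of 14149 bp in bam GKD, against 358 bp in WT, lay 53525 bp from its nearest protein-coding gene, MFS17, near the base of 2R. Inside rdgA, the diacylglycerol kinase gene of photoreceptors, the widths were 11937 bp in bam GKD and 333 bp in WT. Inside CG32982 they were 12926 bp in bam GKD and 1563 bp in WT, and at Trf2, which encodes a core promoter factor related to TBP, 17452 bp in bam GKD and 6220 bp in WT. Except at Trf2, where PIG-T and lawc were also covered, each of these intervals overlapped at most 1 protein-coding gene.

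The 5 pairs with the largest loss of width in bam GKD differed by less. Akap200, which encodes an anchor of protein kinase A, had 667 bp in bam GKD and 6007 bp in WT. The kinesin gene neb had 244 bp in bam GKD and 4568 bp in WT, and eIF4G1 on arm 4, which encodes a scaffold of translation initiation, had 609 bp and 4771 bp. At Galphai, a G protein subunit gene, the widths were 384 bp in bam GKD and 4227 bp in WT, and 2548 bp from CG16721 they were 311 bp and 4062 bp. In all 5 of these the bam GKD interval lay inside the WT interval.

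Pairs of like width included very broad intervals. The broadest covered part of pan together with ci, the transcription factor gene of Hedgehog signalling, and RpS3A on arm 4, with 24321 bp in bam GKD and 24245 bp in WT. On the same arm, an interval at CG33978 measured 21325 bp in bam GKD and 20949 bp in WT, and one over myo, which reached the eye gene ey, 15019 bp and 14614 bp. The ecdysone receptor gene EcR had 23355 bp and 23056 bp. The interval at Imp, which encodes an RNA-binding protein, measured 13526 bp in bam GKD and 12803 bp in WT, and reached Ant2 and sesB.

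In 589 groups, several WT intervals were joined into 1 bam GKD interval, and in 212 groups 1 WT interval was split into several in bam GKD. The joined groups held 1416 WT intervals, and the bam GKD interval (median 6356 bp) was 2.22 times as wide as the summed WT intervals at the median. The gaps bridged had a median of 1569 bp and reached 8968 bp. Splitting gave 2 pieces in 187 of 212 groups and at most 5, with a median gap of 1306 bp, and the pieces summed to 0.579 of the WT width at the median. Another 25 groups held several intervals of each list.

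The joined group with the most pieces lay at mtgo, where 12 WT intervals of 213 to 4538 bp (15199 bp in sum) stood against a bam GKD interval of 44215 bp (2L, 16561524 to 16605738). An interval of 39733 bp in bam GKD reached into Sema5c, a semaphorin gene, against 9 WT intervals summing to 24661 bp. CG9380 at the end of 2R held 2 such regions, of 28000 bp and 26972 bp in bam GKD, against 8 and 7 WT intervals. The first of them also covered Kr, the gap gene Krüppel. A region of 29333 bp in bam GKD that ended in Myc, a growth regulator gene, held 6 WT intervals summing to 19869 bp.

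The split groups with the most pieces, 5 each, lay at pan and grp. At pan a WT interval of 58459 bp stood against 5 bam GKD intervals that summed to 53688 bp. At grp, which encodes the checkpoint kinase Chk1, 5 bam GKD intervals of 329 to 2410 bp stood against a WT interval of 12372 bp. Raf, a MAP kinase pathway gene, had 4 pieces summing to 4365 bp in bam GKD and 13300 bp in WT. At CG12581 the sum was 1192 bp in bam GKD and 9714 bp in WT, and at glec it was 5270 bp and 9328 bp. At pan the pieces kept most of the WT bases, whereas at CG12581 little of the WT interval was left.

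The intervals found in bam GKD only were widest near CG43149 (16266 bp, 3L, 37466 to 53731, near the end of the arm) and between genes 10095 bp from RpS26 (8969 bp). Others lay inside jim, a zinc finger gene (7920 bp), at Acox3, an acyl-CoA oxidase gene (7671 bp), and across Spn77Bc, a serpin gene (7592 bp). The nearest WT interval was between 1632 bp and 2928 bp away from each of these 5. The widest in WT only lay in Ctps, the CTP synthase gene (6262 bp), at Fmr1, which encodes a translational regulator (4991 bp), near aus (4423 bp), at scb, an integrin gene (4347 bp), and 5207 bp from l(2)gl, a cell polarity gene, at the end of 2L (3876 bp). Of the intervals in 1 list only, 207 of 1274 (16.2%) in WT and 253 of 6154 (4.11%) in bam GKD had an interval of the other list less than 1 kb away, among them those at Ctps (851 bp) and aus (715 bp). Unpartnered bam GKD intervals had a median of 7123 bp to the nearest WT interval, and unpartnered WT intervals 2934 bp to the nearest bam GKD interval. These distances also depend on the number of intervals in the other list, so the 2 medians are not compared.

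The total of covered bases differed least between genotypes at gene ends and most outside genes. Within 500 bp of the annotated ends of protein-coding genes, 26.7% of bases lay under bam GKD intervals and 22.4% under WT intervals, a ratio of 1.19. Inside genes, beyond these windows, the values were 15.2% in bam GKD and 7.68% in WT (ratio 1.97), and outside genes 12.4% and 3.56% (ratio 3.48). The order held on each of the 6 arms: on 2R the ratios were 1.04 at gene ends, 1.64 inside genes and 3.06 outside, and on 2L they were 1.29, 2.15 and 4.71. The gene table gives no strand or transcripts, so starts, 3′ ends, exons and introns were not told apart.

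The classes differed in how often they touched a gene end window. In the bam GKD list 80.4% of like-width, 77.8% of narrowed, 67.7% of joined, 60.7% of split, 53.5% of widened and 24.6% of unpartnered intervals did. In the WT list the split intervals had the highest share, 85.8%, and the joined ones had 38.5%. A wider interval reaches such a window more easily, but the contrast with unpartnered intervals stood at each width. Among bam GKD intervals of up to 300 bp, 23.5% (21.5 to 25.7) without a WT partner and 72.6% (69.5 to 75.6) with one lay at gene ends, and among those over 2400 bp 27.9% and 69.0% did. Intervals in WT only lay at gene ends in 54.9%, against 62.3% of shared WT intervals, but the order depended on width. Up to 300 bp the shares were 52.8% in WT only and 39.7% in WT shared, and in the next classes they were 57.3% and 54.5% (up to 600 bp), 57.6% and 68.4% (up to 1200 bp) and 58.3% and 71.7% (up to 2400 bp). Over 2400 bp, 8 of 16 intervals in WT only and 76.8% of those shared lay at gene ends. Of pairs at gene ends 27.4% were widened and 21.7% narrowed, of pairs inside genes 54.1% and 14.8%, and of pairs outside genes 68.6% and 6.19%. These shares of pairs were not taken at like WT width.

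BEAF is a boundary element protein, and of its profiles the WT list was used here. Its WT intervals overlapped 17.6% of all bam GKD intervals: 41.0% of like-width and 40.2% of narrowed ones, but 15.0% of widened and 2.01% of unpartnered ones. Of all WT Stwl intervals 26.8% overlapped BEAF, of shared ones 28.9% and of unpartnered ones 15.2%, but the order depended on width. Up to 300 bp, 12.2% of unpartnered and 8.65% of shared WT intervals overlapped BEAF. Shared ones overlapped it more often in each wider class, with 20.1% against 15.5% up to 600 bp and 29.2% against 19.8% up to 1200 bp. No BEAF profile of bam GKD ovaries was used, so these overlaps do not show whether bam GKD intervals hold BEAF in those ovaries. For split and joined groups the share followed the list in which the interval was wide. The split groups held BEAF in 33.8% of bam GKD pieces (median 964 bp) and 58.5% of WT intervals (median 4428.5 bp), and the joined groups in 34.3% of bam GKD intervals (median 6356 bp) and 15.0% of WT pieces (median 856.5 bp). Of the split WT intervals 71.2% overlapped 2 or more protein-coding genes, against 29.7% of all WT intervals (median 721.5 bp) and 50.4% of narrowed ones (median 955.5 bp). A wider interval reaches several genes more easily, and these shares were not taken at like width.

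Gene density separated the lists further. With 0 to 5 protein-coding genes within 50 kb of the interval's centre, 66.4% (64.6 to 68.1) of bam GKD intervals had no WT partner, and with over 20 genes 27.8% (25.8 to 30.0) had none. The WT intervals went the other way, with 11.6% (9.91 to 13.4) unpartnered at 0 to 5 genes and 18.3% (16.4 to 20.3) at over 20. The number of bam GKD intervals was 2.14 times the number of WT intervals in that sparsest class, 1.44 times with 11 to 15 genes and 1.12 times in the densest class. Pairs followed: 59.7% were widened and 7.65% narrowed in the sparsest class, and 22.2% and 28.8% in the densest. In the densest class the median bam GKD interval was 0.945 times as wide as its WT partner. WT intervals had a median of 579 bp in the sparsest class and 773 bp in the densest, and pairs were not compared at like WT width.

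**Figure D3:**
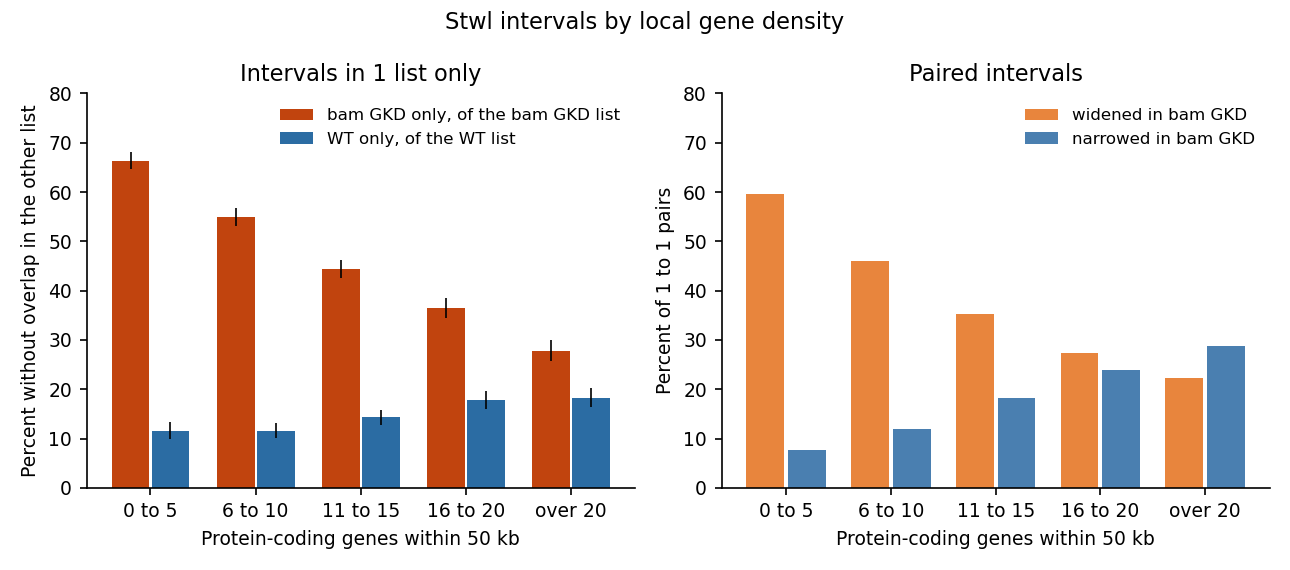
Left, percent of bam GKD and of WT intervals without overlap in the other list, by the number of protein-coding genes within 50 kb, with exact 95% intervals for counting error. Right, percent of 1 to 1 pairs widened or narrowed in bam GKD; the unpartnered share of the bam GKD list declines from 66.4% to 27.8% with density, and narrowed pairs outnumber widened ones only in the class of over 20 genes.

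Each of 13922 protein-coding genes was then scored with 500 bp to each side. Stwl intervals of both lists touched 7254 genes (52.1%), 1651 (11.9%) were touched in bam GKD only, 820 (5.89%) in WT only and 4197 (30.1%) in neither. With the bam GKD list cut to its 8576 widest intervals, 1118 genes were touched in bam GKD only and 2261 in WT only, the reverse order. The WT list was left whole, so this cut could only move the 2 counts in that direction. Counting genes touched in 1 list only together with genes that had at least 1.5 times the bases, 3703 (26.6%) had more in bam GKD and 2445 (17.6%) had more in WT.

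The difference between genotypes grew with gene length above 10 kb. Of 307 genes over 50 kb, 248 (80.8%, 75.9 to 85.0) had more bases under Stwl in bam GKD and 10 (3.26%, 1.57 to 5.91) had more in WT. Between 20 and 50 kb the shares were 59.4% and 8.94%, and between 10 and 20 kb 39.4% and 16.5%. Genes of 1 to 2 kb had 19.8% and 19.5%, and genes of 2 to 5 kb 20.8% and 21.9%. The genes under 1 kb again leaned to bam GKD, with 25.3% and 9.83%, and 49.5% of them were touched in neither list. A long gene offers more bases to intervals of either list, so bases were also taken as a share of the gene: in genes over 50 kb 14.9% were covered in bam GKD and 4.85% in WT, and in genes of 1 to 2 kb 18.0% and 17.4%.

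In long genes the difference lay in the interior as well as at the ends. The interior of genes over 50 kb was covered to 14.3% in bam GKD and 4.34% in WT, and their end windows to 45.1% and 29.6%. For genes of 1 to 2 kb the interior was covered to 7.90% in bam GKD and 7.21% in WT. A gene over 50 kb held on average 8.12 bam GKD intervals and 4.07 WT intervals.

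Length and density overlap, since genes over 50 kb had a median of 4 other genes within 50 kb. Each still went with a difference when the other was held. Among genes of 1 to 2 kb, 31.3% had more in bam GKD and 5.00% more in WT with 0 to 5 neighbours, against 15.6% and 29.6% with over 20. Among genes with 0 to 5 neighbours, the share with more in bam GKD was 31.3% at 1 to 2 kb and 81.1% over 50 kb. For genes over 50 kb density made little difference, with 81.1%, 79.0% and 83.3% at 0 to 5, 6 to 10 and 11 to 15 neighbours (196, 81 and 24 genes).

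**Figure D4:**
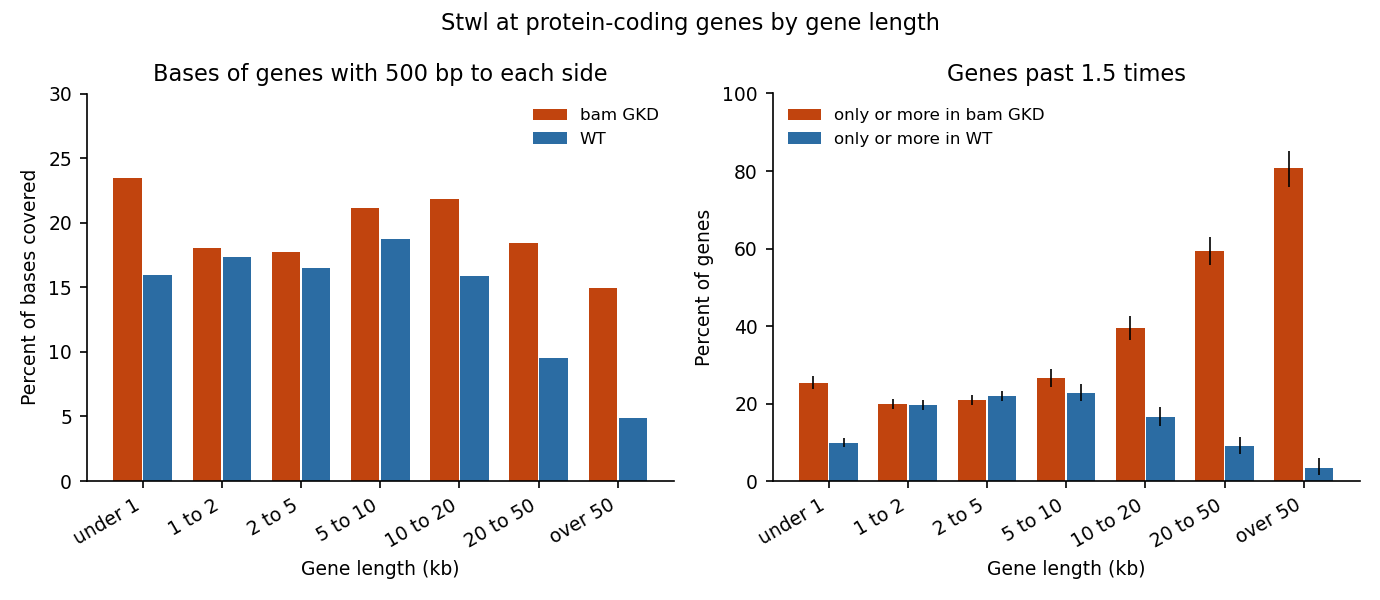
Left, percent of bases of protein-coding genes, with 500 bp to each side, under Stwl intervals of bam GKD and WT, by gene length in kb. Right, percent of genes touched only in, or with at least 1.5 times the bases in, bam GKD or WT, with exact 95% intervals for counting error; the bam GKD share reaches 80.8% in genes over 50 kb, where the WT share is 3.26%.

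The arms differed in the size of the difference. Bases under Stwl were 2.16 times as many in bam GKD as in WT on 3L, 2.04 on 2L, 1.86 on X, 1.83 on 3R and 1.55 on 2R. On 2R, 39.8% of bam GKD and 18.6% of WT intervals had no partner, and on 3L 52.7% and 12.8%. Arm 4, a small chromosome rich in heterochromatin marks, stood apart, with 129 intervals in bam GKD and 170 in WT. Those intervals covered 72.0% of the arm in bam GKD and 62.2% in WT, all 80 of its protein-coding genes were touched in both lists, and 10.1% of bam GKD and 5.88% of WT intervals had no partner.

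Gene groups were described by the same score, beside 26.6% of all genes with more in bam GKD and 17.6% with more in WT. From each group the 2 genes with the largest difference in bases are named, and further members named were chosen after their values were seen. In nervous system genes for channels, adhesion and synapses, 53 of 72 had more bases in bam GKD and 1, dpr19, had more in WT (549 bp in bam GKD, 2258 bp in WT). The gene beat-IIIc, of a family of axon guidance proteins, had 16876 bp in 9 intervals in bam GKD and 281 bp in WT. The acetylcholine receptor subunit gene nAChRalpha4 had 28820 bp in bam GKD and 12778 bp in WT, and the calcium channel gene cac had 16160 bp and 3088 bp. Touched in bam GKD only were 27 of these genes (37.5%, against 11.9% of all genes and 15.9% of those of 20 to 50 kb), among them the adhesion gene dpr2 (10890 bp) and the potassium channel gene Shaw (4939 bp). The list's genes are long (median 36656.5 bp), and of all genes of 20 to 50 kb 59.4% had more in bam GKD.

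Structural genes of muscle had more in bam GKD in 9 of 17 and in WT in 1, with 6702 bp in bam GKD and 453 bp in WT at up, the troponin T gene. Msp300, which links nuclei to the cytoskeleton, had 13150 bp in bam GKD and 4308 bp in WT. The Msp300 gene is 106126 bp long, and of all genes over 50 kb 80.8% had more in bam GKD. Transcription factor genes of embryonic patterning had more in bam GKD in 19 of 44 (43.2%, against 26.6% of all genes) and more in WT in 3. Another 19 had no interval (43.2%, 28.3 to 59.0, a range that includes the 30.1% of all genes). The 2 with the largest difference, the eye genes toy and ey, both lie on arm 4. In bam GKD and WT, toy had 13828 bp and 8810 bp, and ey had 10019 bp and 5896 bp. The Hox gene Ubx, a further member, had 4551 bp in bam GKD and 780 bp in WT. Of 70 cuticle protein genes, 42 (60.0%, against 30.1% of all genes) were in neither list. More in bam GKD had 23 (32.9%, 22.1 to 45.1, near the 26.6% of all genes), and more in WT had 2. Cpr73D had 6724 bp in bam GKD and 1657 bp in WT. Cpr11A lay under a bam GKD interval of 13181 bp (3479 bp within the gene and its flanks, 191 bp in WT).

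Most odorant and gustatory receptor genes, 86 of 119, had Stwl in neither list (72.3%, against 30.1% of all genes and 37.6% of those of 1 to 2 kb). More in bam GKD had 26 (21.8%, below the 26.6% of all genes), and more in WT had 6. Gr39b (2799 bp) and Or67d (2267 bp) were touched in bam GKD only. Among 31 genes of spermatogenesis, 17 were in neither list (54.8%, against 30.1% of all genes). More in bam GKD had 10 (32.3%, near the 26.6% of all genes), and more in WT had 2. The excess of 8 came to 2 when the bam GKD list was cut to its 8576 widest intervals. Of these bol, a regulator of male meiosis, had 14915 bp in bam GKD and 7015 bp in WT, and S-Lap3 had 2078 bp and 403 bp. None of 111 replication-dependent histone genes was touched in either list. These are near-identical copies in a repeat, and how reads matching several copies were treated is not known. Whether this bears on the lack of intervals was not tested.

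Cytoplasmic ribosomal protein genes went the other way, with more in WT in 55 of 91 and more in bam GKD in 3. RpL12 had 417 bp in bam GKD and 2483 bp in WT, where an interval of 4443 bp was split in bam GKD. RpL17, whose intervals were joined, had 3702 bp in bam GKD and 1765 bp in WT. Of mitochondrial ribosomal protein genes 22 of 73 had more in WT and 10 more in bam GKD, with 606 bp in bam GKD and 2416 bp in WT at mRpL3, and 2154 bp and 864 bp at mRpL17. Of the 30 nucleoporin genes 15 had more in WT and 2 more in bam GKD. Nup153, a gene of the nuclear basket, had 2110 bp in bam GKD and 5030 bp in WT, and Gp210, a membrane nucleoporin gene, had 3300 bp and 691 bp. The cytoplasmic ribosomal protein genes are short (median 1318 bp) with a median of 17 other genes within 50 kb, and of all genes of 1 to 2 kb with 16 to 20 others 21.0% had more in WT. Nucleoporin genes had medians of 2724.5 bp and 17 others, and of all genes of 2 to 5 kb with 16 to 20 others 22.6% had more in WT. Nucleoporin genes with more in bam GKD minus those with more in WT came to -8 without flanks and -20 with equal numbers (main -13).

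**Figure D5:**
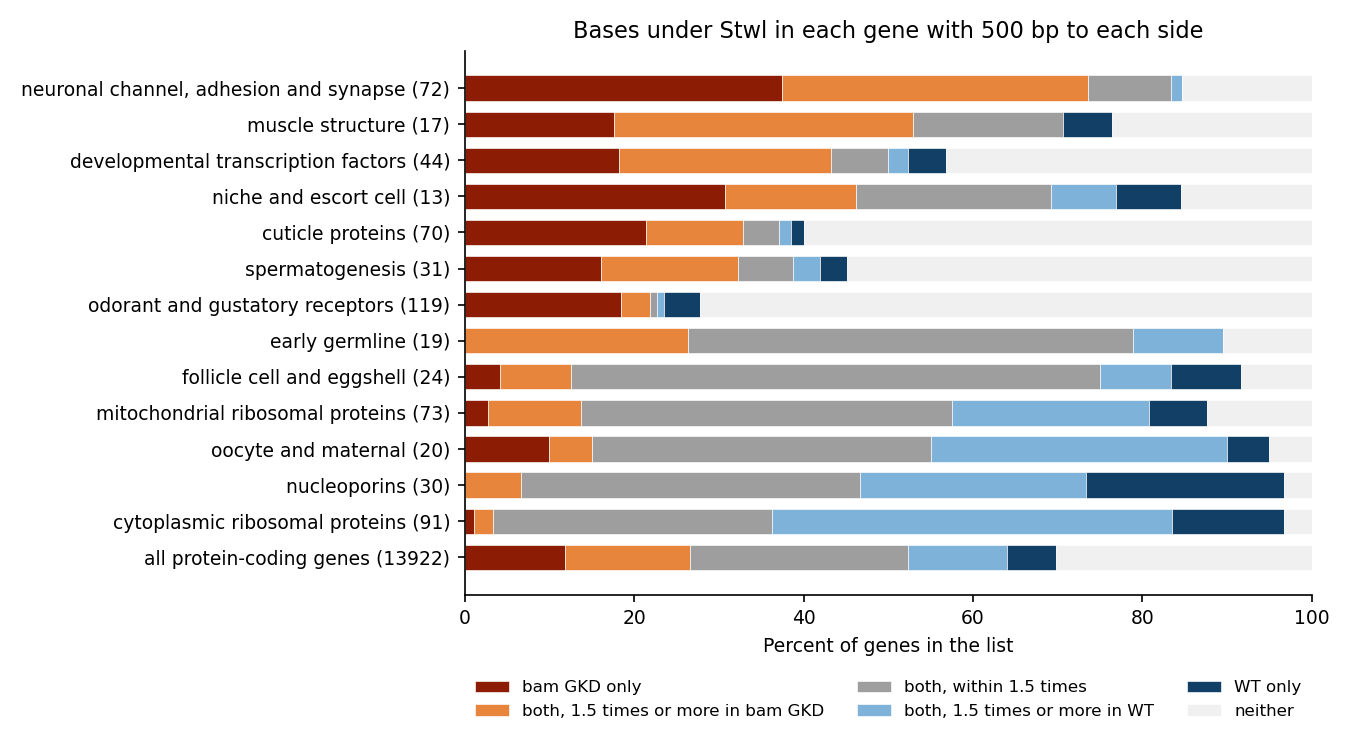
Share of the genes of each list, in percent, by bases under Stwl within the gene and 500 bp to each side, with the number of genes in brackets, all protein-coding genes in the bottom row and the histone genes, touched in neither list, left out. Nervous system genes (53 of 72 with more in bam GKD) stand at the top and cytoplasmic ribosomal protein genes (55 of 91 with more in WT) next to the bottom.

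Germline genes lay between. Of 19 genes that act in early germ cells, 17 had Stwl in both lists (89.5%, against 52.1% of all genes), and zpg and tut had none. More in bam GKD had 5 (26.3%, near the 26.6% of all genes), and more in WT had 2. The 5 include bam itself (674 bp in bam GKD, 447 bp in WT), where the difference changed sign when narrow intervals were left out. With the bam GKD list cut to its 8576 widest intervals, the excess of 3 genes with more in bam GKD came to 0. At pum, a translational repressor gene that keeps stem cells, 28 bam GKD intervals covered 55871 bp and 11 WT intervals covered 23832 bp. The pum gene is 171340 bp long, and of all genes over 50 kb 80.8% had more in bam GKD. The 3 pum intervals nearest to its right end were of like width in both lists, and 18 of the 28 bam GKD intervals had no WT partner. Its partner gene brat had 10311 bp in bam GKD and 19003 bp in WT, and nanos had 430 bp and 2086 bp. At brat the broad interval over the right end was of like width (8525 bp in bam GKD, 8070 bp in WT), while 2 interior intervals were narrowed, 2 had no partner in bam GKD, and the WT interval of 5482 bp at the left end was split. Of 20 oocyte and maternal genes 8 had more in WT and 3 more in bam GKD. Those with more in WT included me31B, a helicase gene of RNA granules (1424 bp in bam GKD, 3832 bp in WT). Further members with more in WT were exu (478 bp and 2186 bp) and osk (1571 bp and 2903 bp). The RNA-binding protein gene sqd had 7505 bp in bam GKD and 5697 bp in WT, within the factor of 1.5.

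Genes of the somatic cells were mixed. Of 13 genes of the niche and escort cells, 6 had more in bam GKD (46.2%, 19.2 to 74.9, a range that includes the 26.6% of all genes). More in WT had 2 (15.4%, near the 17.6% of all genes), which are not named here. The excess of 4 with more in bam GKD came to 1 when the bam GKD list was cut to its 8576 widest intervals. The terminal filament factor gene bab2 had 5 intervals and 8790 bp in bam GKD and none in WT. Its neighbour bab1, a further member, had 4744 bp in bam GKD and none in WT. The gene dally, which encodes a glypican that shapes BMP signalling, had 11728 bp in bam GKD and 3491 bp in WT. These are long genes, with 36848 bp at bab2 and 63688 bp at dally. Of all genes of 20 to 50 kb 59.4% had more in bam GKD, and of those over 50 kb 80.8%. Of 24 follicle cell and eggshell genes, 15 had both and lay within the factor of 1.5 (62.5%, against 25.7% of all genes). More in bam GKD had 3 (12.5%, against 26.6%), and more in WT had 4 (16.7%, near the 17.6% of all genes). Fas3, an adhesion protein gene of follicle cells, had 33637 bp in 15 intervals in bam GKD and 2305 bp in 8 narrow intervals in WT. In contrast br, an ecdysone response gene, had 1390 bp in bam GKD and 3209 bp in WT. Both genes exceed 50 kb (73340 bp and 89738 bp), a length class in which 80.8% of all genes had more in bam GKD. The chorion genes Cp15 (1586 bp) and Cp18 (1823 bp) were covered in full in both lists, under the widest interval of each (81541 bp in bam GKD, 72696 bp in WT). Chorion proteins form the eggshell and are made by follicle cells of late stages.

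At stwl itself (3L, 14402930 to 14409939) intervals lay at or near both ends in both lists. The right end lay under an interval of 7165 bp in bam GKD (3L, 14406898 to 14414062) and 5963 bp in WT (14407189 to 14413151). The left end lay under an interval of 14357 bp in bam GKD (14389558 to 14403914), of the joined class. In WT an interval of 679 bp (14403049 to 14403727) began inside the gene, close to that end. At bam, an interval beyond the right end measured 4561 bp in bam GKD and 5008 bp in WT, and bam GKD had a further interval of 259 bp inside bam (3R, 25243159 to 25243417) with no WT partner.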

How the data were processed

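Stwl CUT&RUN intervals of bam GKD and WT ovaries were compared, with a BEAF WT list used for description. The 21 further samples were not analysed here. The authors deposited each list as chromosome, start and end on dm6, per the submitters' processing notes for the build, with no score or read count. They list MACS2 2.1.0, deepTools 3.2.1, SAMtools 1.9, Bowtie2 2.2.8, Trim Galore 0.6.6 and FastQC 0.11.8, without roles. For settings, control and any pooling of duplicates, the sources used here give nothing. Read depth, which bears on the number and width of intervals, is therefore unknown.

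Samples were grouped by title. Intervals overlapping by at least 1 bp were joined into 13859 connected groups with Python 3.11.15, numpy 2.4.6, pandas 2.3.3 and SciPy 1.17.1, and figures were drawn with matplotlib 3.10.9. The classifier was tested on simulated data. Genes came from a RefSeq table of Release 6, the assembly known as dm6, and 7 listed symbols had no match. Shares carry exact Clopper-Pearson 95% intervals. With 1 list per genotype no test was planned or made.

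Named groups were the first 5 of each class by difference in width, by number of pieces, by width or by summed width, each called by the gene overlapping it most or nearest to it. The intervals, gene lists and alternatives were chosen with earlier results of these data known.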

Additional observations from a re-analysis of the deposited data

How the results depend on the processing

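Read depth is unknown, positions carry no score, and the lists hold no gaps of 1 kb or less, so class counts depend on how intervals were made. No paired analysis was possible because each genotype has 1 list with no replicate. In each setting in which it was computed, the count of unpartnered intervals was higher in bam GKD than in WT, the gene-end share was lower in unpartnered than in shared bam GKD intervals, and the unpartnered bam GKD share was higher at 5 genes or fewer than at over 20. Gene parts were not computed for other width folds or without an arm, and density was not computed for these or for joined intervals. For WT intervals the order of gene-end shares turned with the setting.

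Keeping intervals of 500 bp or more left 1005 widened, 404 narrowed, 106 split, 296 joined and 13 rearranged groups. Gene-end shares were then 31.6% in bam GKD only, 75.6% in bam GKD shared, 72.8% in WT only and 69.9% in WT shared. The unpartnered share at 5 genes or fewer and at over 20 was 70.8% and 33.2% in bam GKD, and 8.20% and 28.6% in WT. Of genes of 1 to 2 kb, 15.2% had more in bam GKD and 14.9% more in WT. The setting of equal numbers kept the 8576 widest bam GKD intervals (at least 461 bp) and the whole WT list. It can therefore only lower counts in bam GKD only and raise counts in WT only. It gave 439 narrowed and 101 split groups, 3335 intervals in bam GKD only and 2606 in WT only. Gene-end shares were 25.9% in bam GKD only, 65.7% in WT only and 59.2% in WT shared. Genes over 50 kb had more in bam GKD in 74.9%, genes of 1 to 2 kb had more in bam GKD in 14.2% and in WT in 26.6%, and 1118 genes were touched in bam GKD only and 2261 in WT only, the reverse of the main order. Both settings turned the difference at bam to -32 bp, from which the bam GKD interval of 259 bp was then missing.

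Joining intervals over gaps of up to 3000 bp gave 1388 like-width, 1297 widened, 553 narrowed and 41 rearranged groups, 2877 intervals in bam GKD only and 690 in WT only. Gene-end shares became 27.2% in bam GKD only, 78.3% in bam GKD shared and 68.2% in WT shared. The summed bam GKD minus WT width turned to 83840 bp at the split group of pan and to 3326 bp at that of grp, where the joined intervals reach beyond the group. Counting intervals up to 1000 bp apart as overlapping gave 98 rearranged groups and gene-end shares of 67.7% in bam GKD shared and 58.3% in WT only, and an overlap of 50% gave 7 rearranged groups.

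For gene-end windows of 250 bp, the shares in bam GKD only, bam GKD shared, WT only and WT shared were 20.1%, 67.0%, 51.9% and 59.8%. With windows of 1000 bp they were 29.4%, 71.5%, 58.4% and 65.2%, by interval centre 17.3%, 48.3%, 50.6% and 48.0%, and with all annotated genes 28.8%, 72.5%, 58.5% and 65.3%. A density window of 20 kb gave 25.2% of bam GKD intervals unpartnered in the densest class. Without flanks, 13.8% of genes of 1 to 2 kb had more in bam GKD and 16.2% more in WT.

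A further 3 alternatives for gene density were chosen after seeing the data. With equal numbers, the unpartnered shares at 5 genes or fewer and at over 20 were 55.7% and 20.6% in bam GKD, and 19.3% and 40.6% in WT. With intervals up to 1000 bp apart as overlapping, the WT shares were 9.02% and 16.4%, and an overlap of 50% gave 13.7% in WT at 5 genes or fewer. A smaller and a larger width fold, and leaving out X or arm 4, kept the counts of all classes within 1.5 times the main ones. Of the values for gene lists, named genes and named groups under the alternatives, 191 stayed near the main value, 42 moved in size without a change of sign and 4 changed sign, as given above. With equal numbers, genes with more in bam GKD minus genes with more in WT came to 0 (main 3) in early germ cell genes, 1 (main 4) in niche and escort cell genes and 2 (main 8) in spermatogenesis genes, against 41 (main 52) in nervous system genes.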

Other observations

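The arms were also divided into 133 bins of 1 Mb. Bases under Stwl were more numerous in bam GKD in 127 bins and in WT in 6, with a median ratio of 1.87 of bam GKD over WT. Bins with under 50 protein-coding genes had a median ratio of 2.79, and bins with at least 150 genes had 1.47. Of the 6 bins with more in WT, 3 lie side by side on 2R from 22 to 25 Mb, with 163, 189 and 179 genes and ratios of 0.866, 0.813 and 0.917. The highest ratios, 12.4 and 11.8, fell in a pair of bins of 3R with 1 gene each, where bam GKD had 13 and 18 intervals and WT had 4 and 3. Among bins with more than 50 genes, 2L from 17 to 18 Mb stood out with 61 genes, where 113 bam GKD intervals covered 17.0% and 30 WT intervals covered 2.06%, a ratio of 8.25. It holds beat-IIIc. These bins were chosen after their values were seen.

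The rows of the bam GKD list are not in coordinate order, and earlier rows hold wider intervals (Spearman rho of row number and width -0.547, as a description across 12888 rows), whereas in WT rho was 0.0215. In 4 equal blocks of rows from first to last, 70.3%, 55.4%, 44.7% and 38.1% of bam GKD intervals were shared with WT. The meaning of the order is not stated in the sources used here.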
